A study of Mus musculus with 8 samples.

Results

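Chromatin accessibility was described at the loci of 10 genes that encode the NF-kB subunits and their inhibitors in mouse bone marrow-derived macrophages (BMDMs). The subunit genes were Nfkb1, Nfkb2, Rel, Rela and Relb, and the inhibitor genes were Nfkbia, Nfkbie, Nfkbiz, Bcl3 and Tnfaip3. A peak was taken as a member when the deposited annotation named one of these genes as its nearest gene and placed it within 100 kb of the transcription start site (TSS). By this rule 16 of the 9698 peaks of the wild-type (WT) table were members, and they lay at 7 of the 10 genes. Among the NCoR f/f peaks 45 of 24867 were members, and all 10 genes had at least 1. Nfkb2, Rela and Nfkbie had no peak in the WT table. The annotation also named Nfkbiz for 1 WT peak and for 2 NCoR f/f peaks that were over 100 kb from its TSS, and these were left out. The nearest gene is a label of position and says nothing about which gene a peak acts on.

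The study asked how the corepressor NCoR and the histone deacetylase HDAC3 take part in the response of macrophages to Toll-like receptor 4 (TLR4), and the ATAC-seq data used here cover 8 libraries. ATAC-seq inserts sequencing adapters into open chromatin with a transposase, so the tags in a peak count insertions there. The WT libraries came from BMDMs of C57Bl6 mice with a wild-type genotype in 3 conditions of 2 libraries each, all harvested at 6 h: vehicle (Veh), Kdo2 lipid A (KLA), which is a TLR4 agonist, and KLA with RGFP966, an inhibitor of HDAC3. The other 2 libraries, also labelled C57Bl6 and 6 h, came from BMDMs of NCoR f/f mice at Veh. In these mice both Ncor1 alleles carry flox sites and no Cre is present. In the study these mice served as the wild-type controls of a LysM-Cre knockout, whose libraries were not analysed here. The study's methods have cultured macrophages kept in low serum before a stimulus, with RGFP966 added when the low serum began, so before KLA. No library had RGFP966 without KLA, so an effect of the inhibitor alone and one on the KLA response cannot be told apart. The labels give no age or sex of the mice. The titles of the RGFP966 libraries name the inhibitor, whereas their treatment label names KLA alone. No source states if the paired libraries of each group derive from different animals or culture dishes. The p-values accordingly capture just counting error and the library-to-library spread, which may be technical.

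NF-kB is a family of dimeric transcription factors that inhibitory IkB proteins hold in the cytoplasm of resting cells. A TLR4 signal activates the IkB kinase, the inhibitors are degraded, and dimers such as p50 with p65 enter the nucleus and bind kB sites. Several genes of the family and of its inhibitors are themselves known targets of NF-kB in macrophages, which gives the pathway both feed-forward and feedback arms.

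Depth was low. Tags in peaks ranged from 116733 to 202523 per WT library, from 1.40% to 2.06% of all tags, and amounted to 372367 and 509741 in the NCoR f/f libraries. Levels are given as tags per 100000 tags in peaks of the library, called normalised tags here, and levels of different genes are compared only per kb of peak. Of 8 macrophage marker genes, 4 (Csf1r, Cd68, Itgam and Fcgr1) had a WT peak, with summed levels of 29.9 to 40.1 normalised tags per library, while none of the 16 marker genes of T cells, B cells, neutrophils and fibroblasts had one. In the NCoR f/f table all 8 macrophage markers had a peak (54.9 to 58.5 normalised tags), along with Cd3d of the T-cell list (1.37 to 3.49) and Mpo of the neutrophil list (1.07 to 1.57).

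The sequences under selected members come first, because most of them lie away from promoters. Each is the mm10 plus strand, 5′ to 3′, read from the RefSeq copy of the mouse assembly, in lower case. Capitals mark a match on either strand to the NFkB-p65 consensus, to AP-1 (TGANTCA) or to PU.1 (GAGGAAGT), a lineage factor of macrophages. The first 4 are the Nfkb1 peaks called in at least 1 comparison, and Tnfaip3 +46905 is the Tnfaip3 peak that was called. Nfkbia -125, which was called in no comparison, shows a promoter of an inhibitor gene. The promoter peak Nfkbiz -91, which was gained in KLA against Veh, is not shown and held no match to these motifs within its bounds. The overlapping NCoR f/f peak Nfkbiz -93 reaches further and held an NFkB-p65 match at chr16:55838860-55838869, just outside the WT peak. Of Tnfaip3 +46905 the central 300 bases are shown.
Nfkb1 -28568 (chr3:135719995-135720235): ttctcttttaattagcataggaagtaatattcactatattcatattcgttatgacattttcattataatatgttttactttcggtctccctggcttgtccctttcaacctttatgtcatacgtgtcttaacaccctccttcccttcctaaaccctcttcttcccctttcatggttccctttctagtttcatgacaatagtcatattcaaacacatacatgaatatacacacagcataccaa
Nfkb1 +19029 (chr3:135672386-135672650): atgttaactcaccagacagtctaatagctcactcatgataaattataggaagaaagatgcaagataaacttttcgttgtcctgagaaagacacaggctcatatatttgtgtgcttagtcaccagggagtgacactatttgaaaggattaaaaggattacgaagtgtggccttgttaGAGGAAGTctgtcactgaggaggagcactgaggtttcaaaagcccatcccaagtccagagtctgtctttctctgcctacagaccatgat
Nfkb1 +51179 (chr3:135640230-135640507): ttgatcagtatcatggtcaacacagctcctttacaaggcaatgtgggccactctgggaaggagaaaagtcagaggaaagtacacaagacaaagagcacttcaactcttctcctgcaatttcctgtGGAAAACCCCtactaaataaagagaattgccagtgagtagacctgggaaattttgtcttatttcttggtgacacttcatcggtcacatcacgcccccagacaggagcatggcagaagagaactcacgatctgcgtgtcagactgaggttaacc
Nfkb1 +84184 (chr3:135607220-135607506): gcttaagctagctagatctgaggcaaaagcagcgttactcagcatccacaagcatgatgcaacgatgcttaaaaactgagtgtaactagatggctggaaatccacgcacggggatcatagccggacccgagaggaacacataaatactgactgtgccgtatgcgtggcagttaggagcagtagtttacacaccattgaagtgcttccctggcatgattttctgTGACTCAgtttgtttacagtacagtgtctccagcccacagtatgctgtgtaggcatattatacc
Tnfaip3 +46905 (chr10:18964909-18965208): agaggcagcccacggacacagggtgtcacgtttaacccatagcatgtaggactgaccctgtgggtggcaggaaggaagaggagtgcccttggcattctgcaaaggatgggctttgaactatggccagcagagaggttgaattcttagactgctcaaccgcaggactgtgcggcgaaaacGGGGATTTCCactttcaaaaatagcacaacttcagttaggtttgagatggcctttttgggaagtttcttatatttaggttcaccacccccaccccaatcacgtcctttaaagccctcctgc
Nfkbia -125 (chr12:55492666-55492879): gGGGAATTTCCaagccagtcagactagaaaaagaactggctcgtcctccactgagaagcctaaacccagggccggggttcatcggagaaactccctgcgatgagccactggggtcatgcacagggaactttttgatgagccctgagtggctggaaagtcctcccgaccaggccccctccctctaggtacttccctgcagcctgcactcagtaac

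The numbers in these names are the distance of the peak center from the TSS in bp, negative upstream and positive in the direction of transcription. Nfkb1 -28568 was annotated as intergenic and held none of the 3 motifs. Nfkb1 +19029 lies in intron 1 of Nfkb1 and its capitals are a PU.1 match. Nfkb1 +51179 lies in intron 6 and its capitals are an NFkB-p65 match on the minus strand. Nfkb1 +84184 lies in intron 13 and its capitals are an AP-1 match, found on both strands. The intergenic peak Tnfaip3 +46905 and the promoter peak Nfkbia -125 each held 1 NFkB-p65 match. In the central 200 bp, 4 of the 16 WT member peaks (25%) held an NFkB-p65 match against 4.89% of the 9527 peaks on assembled chromosomes. The corresponding shares were 12.5% and 18.2% for AP-1 and 18.8% and 7.49% for PU.1. Over the whole peak the NFkB-p65 match was found in 5 member peaks (31.2%), against 6.22% of the peaks on assembled chromosomes. These were Nfkb1 +58, Nfkb1 +51179, Rel -178, Nfkbia -125 and Tnfaip3 +46905. Over the same window PU.1 was matched in 5 member peaks (31.2% against 8.92%) and AP-1 in 3 (18.8% against 20.8%). Of the NCoR f/f member peaks 12 of 45 (26.7%) held an NFkB-p65 match in the central 200 bp, against 4.51% of all peaks. A match describes the letters in the window and is not evidence that a factor was bound.

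The members together held more of the tags after KLA. Of all tags in peaks they took 0.0931% and 0.107% at Veh, 0.157% and 0.178% after KLA, and 0.129% and 0.141% with RGFP966. The 3 conditions did not overlap. Nfkb1 made up 7.5% and 10.8% of the member tags at Veh, 25.6% and 29.3% after KLA, and 17.2% and 18.6% with RGFP966. Without Nfkb1 the members had 86.1 and 95.8 normalised tags at Veh, 117 and 126 after KLA, and 107 and 115 with RGFP966, so the conditions were still apart and the gaps were smaller. In such bulk libraries, fewer cells with an open site and fewer insertions per cell cannot be told apart.

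How the peaks entered the table bears on these values. The authors merged peak sets that were reproducible in each condition, and 15 of the 16 member peaks were in the KLA set, 8 in the RGFP966 + KLA set and 2 in the Veh set. Of all WT peaks, 52.5% were in the KLA set, 81.1% in the RGFP966 + KLA set and 48.9% in the Veh set. The 8 member peaks found in the KLA set alone made up 50% of the members, against 7.60% of all peaks. The listing of a peak thus already used the libraries compared, so its part in the counts cannot be told apart from a change. The counts of gained and lost peaks are also given over the peaks of the set that took no part in that comparison. For the comparisons with Veh that set also came from KLA-treated libraries, so it does not free the counts of this choice. The other counts are over all members. Of the members 5 (31.2%) lay within 2 kb of a TSS, against 50.7% of all WT peaks.

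**Figure D1:**
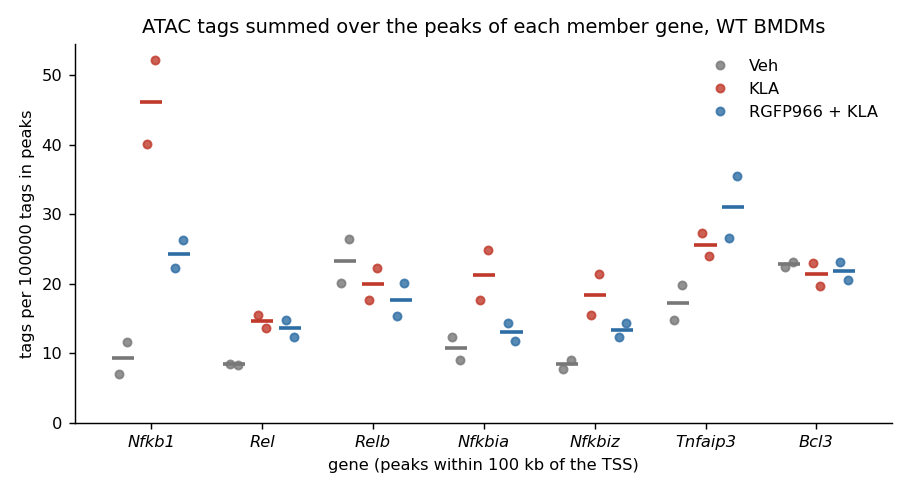
Tags per 100000 tags in peaks (y axis), summed over the member peaks of each gene (x axis) in the 6 WT libraries. Each point is 1 library and each horizontal line the mean of 2 libraries. Nfkb1 at KLA (40.1 and 52.3) lies above its other conditions, and Relb and Bcl3 show the conditions close together.

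In KLA against Veh, 5 of the 16 member peaks were gained and 0 were lost. Gained and lost peaks passed a Benjamini-Hochberg adjusted p of 0.05 over all peaks in edgeR's quasi-likelihood test and changed over 2-fold. Over all 9698 peaks, 3.3% were gained and 1.73% were lost. Among peaks of the RGFP966 + KLA set, 2 of 8 members were gained (Nfkb1 +51179 and Nfkbiz -91), against 3.09% of all peaks of that set, and 0 were lost, against 0.877%. In 12 member peaks both KLA libraries were above both Veh libraries (25.3% of all peaks), and in 1, Bcl3 -8135, both were below (22.6%). The median log2 fold change was 0.86 over the members and 0.02 over all peaks. Summed per gene, 1 of the 7 members with a peak was higher and 0 were lower, where 2.64% and 1.67% of 6598 genes were. At an unadjusted p under 0.05, 9 member peaks were higher and 0 lower, where 11.2% and 8.28% of all peaks were. DESeq2 called 0 member peaks under either of its scalings, with 5 higher and 0 lower at an unadjusted p under 0.05 (3.69% and 2.19% of all peaks under its own scaling, 3.98% and 2.08% under total tags in peaks), and it called 0 of all 9698 peaks, but for Nfkb1 summed over its peaks it gave an adjusted p of 0.000248.

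Few peaks passed the test between the RGFP966 + KLA and KLA libraries, which at this depth does not show that few loci differed. Of the member peaks 0 were gained (0.237% of all peaks) and 1, Nfkb1 +19029, was lost (0.103%). The 2 members of the Veh set, Relb +754 and Bcl3 -8135, were neither gained (0.0422% of all peaks in that set) nor lost (0.0422%). Both RGFP966 + KLA libraries were above both KLA libraries in 3 member peaks (25.7% of all peaks) and below them in 7 (20.1%). The median log2 difference was -0.41 over the members and 0.03 over all peaks. By summed tags 0 of 7 genes were higher (0.212% of all genes) and 1, Nfkb1, was lower (0.106%). At an unadjusted p under 0.05 edgeR had 1 member peak higher and 2 lower, where 7.92% and 5.93% of all peaks were, so the share higher was near that of all peaks. DESeq2 called 0 member peaks and 0 member genes, and had 0 member peaks higher and 1 lower at an unadjusted p under 0.05 (0.835% and 0.65% of all peaks under its own scaling).

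In RGFP966 + KLA against Veh, a comparison that shares libraries with both of the others, 2 member peaks were gained (Nfkb1 +51179 and Tnfaip3 +46905) and 0 were lost. Of all peaks 6.89% were gained and 2.99% lost. Both gained members were in the KLA set, which held 15 members, and of all peaks in that set 4.48% were gained and 1.37% lost. The RGFP966 + KLA libraries were both above the Veh libraries in 8 member peaks (30% of all peaks) and both below in 1 (24.7%). By summed tags Nfkb1 and Tnfaip3 were higher (5.85% of all genes) and 0 members were lower (3.44%). At an unadjusted p under 0.05, 3 member peaks were higher and 0 lower, where 15.3% and 10.2% of all peaks were, so the share higher was near that of all peaks. DESeq2 called 0 member peaks and 0 member genes. At an unadjusted p under 0.05 it had 1 member peak higher under its own scaling (5.03% of all peaks) and 2 under total tags in peaks (5.69%). The median log2 difference was 0.57 over the members and 0.04 over all peaks.

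**Figure D2:**
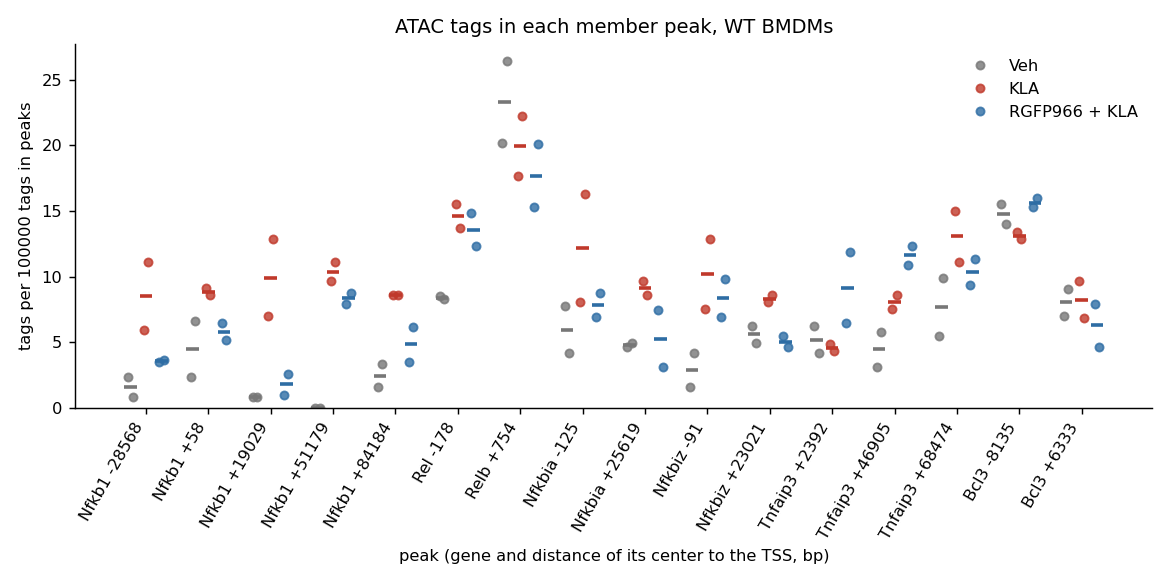
Tags per 100000 tags in peaks (y axis) in each of the 16 member peaks (x axis, gene and distance of the peak center to the TSS in bp) in WT BMDMs. Each point is 1 library and each horizontal line the mean of 2 libraries. Nfkb1 +51179 has no tag at Veh and 7.90 to 11.1 after KLA with or without RGFP966, while Nfkb1 +19029 is at 6.95 and 12.8 after KLA alone and at most 2.57 elsewhere.

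Nfkb1 encodes p105, the precursor of the p50 subunit, and it had the most member peaks and, of the 7 genes tested, the largest fitted change after KLA. Over its 5 peaks it held 9 and 14 tags in the Veh libraries, 75 and 61 after KLA, and 45 and 51 with RGFP966. As normalised tags this was 9.27 ± 3.24 (SD, n = 2) at Veh, 46.2 ± 8.59 after KLA and 24.2 ± 2.86 with RGFP966, and no condition overlapped another. After KLA the sum was higher by 2.28 on the log2 scale (SE 0.28, adjusted p = 2.77e-09 in edgeR's quasi-likelihood test). Of the 5 peaks 4 were listed through the KLA set alone and none through the Veh set, and only Nfkb1 +51179 was also in the RGFP966 + KLA set, so these tests of the sum use libraries that chose its peaks. With RGFP966 the sum fell by 0.89 relative to KLA alone (SE 0.20, adjusted p = 0.0166) and was higher than Veh by 1.39 (SE 0.31, adjusted p = 0.00142). The change relative to KLA alone lost its call without any 1 of the 4 libraries compared, with adjusted p from 0.0717 to 0.268, under DESeq2, when scaled to all tags of a library (0.532) and over peaks within 20 kb (0.0526). The change relative to Veh lost its call without the first Veh library (adjusted p = 0.104), under DESeq2 (0.0999 and 0.118), and over the 2 peaks within 20 kb of the TSS, where it was 0.53 (0.537).

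The intronic peak Nfkb1 +51179 had 0 tags in both Veh libraries. It held 18 and 13 tags after KLA and 16 and 17 with RGFP966, so each stimulated library had at least 13 tags where the Veh libraries had none. Against a floor of 3 tags per Veh library, its level was at least 4.32-fold higher after KLA and at least 3.47-fold higher with RGFP966. The adjusted p in edgeR's quasi-likelihood test was 8.99e-05 after KLA, and with the inhibitor present it was 0.00019, each relative to Veh. The peak was listed through the KLA and RGFP966 + KLA sets and not the Veh set. These tests and bounds thus use libraries that chose it. Between the KLA and RGFP966 + KLA libraries it was not called, with a log2 difference of -0.29 (SE 0.35, adjusted p = 0.75). In DESeq2 these comparisons did not pass, with adjusted p of 0.146 and 0.24 under its own scaling and 0.133 and 0.204 under total tags in peaks.

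The first-intron peak Nfkb1 +19029 was high in the KLA libraries alone. It held 1 tag in each Veh library, 13 and 15 after KLA, and 2 and 5 with RGFP966. The ratio of the summed, scaled tags of KLA to Veh was 11.5, with an exact 95% counting interval from 2.91 to 99.8, and the edgeR adjusted p was 0.00111. From KLA to RGFP966 + KLA the level fell by 2.33 on the log2 scale (SE 0.49, adjusted p = 0.0164), and the RGFP966 + KLA libraries were both below the KLA libraries. This peak was listed through the KLA set alone, so both its gain and its loss were tested against the libraries that chose it, and the part of that choice in either value cannot be told apart. The RGFP966 + KLA level did not pass the test against Veh (log2 difference 1.07, SE 0.94, adjusted p = 0.541). The loss relative to KLA was not called without the second KLA library (adjusted p = 0.214), without the first RGFP966 + KLA library (0.32) or without the second (0.162). Whether +19029 and +51179 differ in their response to RGFP966 was not tested.

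The upstream peak Nfkb1 -28568, like +58 and +84184, was also listed through the KLA set alone. It held 3 and 1 tags at Veh, 11 and 13 after KLA, and 7 and 7 with RGFP966. It was gained after KLA (log2 fold change 2.25, SE 0.61, adjusted p = 0.0178), and its RGFP966 + KLA level lay between the others without passing a test against KLA (-1.14, SE 0.44, adjusted p = 0.24) or Veh (1.10, SE 0.70, adjusted p = 0.355). The gain lost its call without either Veh library (adjusted p = 0.0651 and 0.198) and without the second KLA library (0.172). Nfkb1 +84184 held 2 and 4 tags at Veh, 16 and 10 after KLA, and 7 and 12 with RGFP966. Its gain after KLA (log2 fold change 1.80, SE 0.55, adjusted p = 0.0418) was close to the threshold and lost its call without any 1 of the 6 WT libraries (adjusted p from 0.06 to 0.316). The promoter peak Nfkb1 +58 held 3 and 8 tags at Veh, 17 and 10 after KLA, and 13 and 10 with RGFP966. The KLA and Veh libraries did not overlap there, and the difference did not pass the test (log2 difference 1.00, SE 0.49, adjusted p = 0.24).

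**Figure D3:**
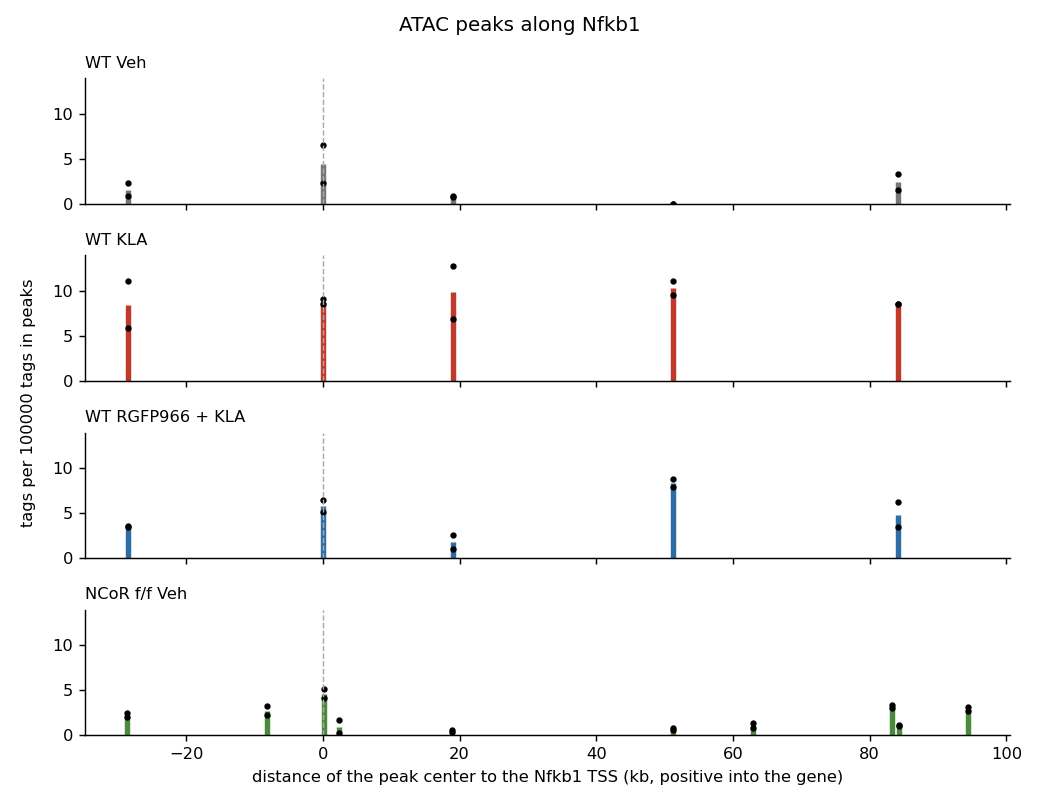
Mean tags per 100000 tags in peaks (bars, with each of 2 libraries as a point) along Nfkb1, by distance of the peak center to its TSS in kb. The panels show WT BMDMs at Veh, KLA and RGFP966 + KLA over the 5 WT peaks and NCoR f/f BMDMs at Veh over the 10 peaks of their own table. The bar 51.2 kb into the gene is at 0 in WT Veh and at 10.4 after KLA, and at 0.697 in NCoR f/f Veh. The NCoR f/f levels are scaled to tags in the peaks of their own table, and those peaks differ in width. Their heights are therefore not comparable with the WT panels.

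Rel encodes c-Rel, a subunit with its own transactivation domain, and its only WT peak, Rel -178 (mm10 chr11:23770925-23771371), lies at the promoter. The peak held 11 and 10 tags at Veh, 29 and 16 after KLA, and 30 and 24 with RGFP966. Both stimulated conditions were above Veh as normalised tags (8.39 ± 0.19 at Veh, 14.6 ± 1.27 after KLA and 13.6 ± 1.74 with RGFP966), and neither difference passed the test (adjusted p = 0.197 for KLA and 0.21 for RGFP966 + KLA against Veh). Relb encodes the partner of p52 in the non-canonical pathway. Its peak, Relb +754 (mm10 chr7:19628508-19628861), held 26 and 32 tags at Veh, 33 and 26 after KLA, and 31 and 39 with RGFP966. At Veh this was the member with the highest level per kb (65.8 ± 12.5 normalised tags per kb), and it was 1 of 2 in the Veh peak set. Its KLA and Veh libraries overlapped (log2 difference -0.25, SE 0.28, adjusted p = 0.692), and the RGFP966 + KLA libraries were below Veh without passing the test (-0.39, SE 0.28, adjusted p = 0.387).

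Nfkbia encodes IkBα, the classical cytoplasmic inhibitor and an early NF-kB target. Its promoter peak, Nfkbia -125, held 10 and 5 tags at Veh, 15 and 19 after KLA, and 14 and 17 with RGFP966. The other peak, Nfkbia +25619, held 6 and 6, 18 and 10, and 15 and 6 tags in the same order. Summed, the gene had 10.7 ± 2.35 normalised tags at Veh, 21.2 ± 5.09 after KLA and 13.1 ± 1.75 with RGFP966. The KLA libraries lay above both other conditions, and neither difference passed the test (log2 difference from Veh 0.92, SE 0.33, adjusted p = 0.084; from KLA to RGFP966 + KLA -0.64, SE 0.28, adjusted p = 0.267).

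Nfkbiz encodes IkBζ, a nuclear family member that promotes a subset of secondary response genes. Its promoter peak, Nfkbiz -91 (mm10 chr16:55838620-55838845), held 2 and 5 tags at Veh, 14 and 15 after KLA, and 14 and 19 with RGFP966. It was the gained member outside Nfkb1 in KLA against Veh, with a log2 fold change of 1.74 (SE 0.55, adjusted p = 0.0469). This peak was listed through the KLA and RGFP966 + KLA sets and not the Veh set, so the test uses libraries that chose it. The gain lost its call without any 1 of the WT libraries except the first KLA library, with adjusted p from 0.0608 to 0.351 in those 5 fits. With RGFP966 the peak stayed near the KLA level (log2 difference -0.20, SE 0.37, adjusted p = 0.856), and against Veh it missed the threshold (1.54, SE 0.54, adjusted p = 0.0552). The peak Nfkbiz +23021 held 8 and 6 tags at Veh, 15 and 10 after KLA, and 11 and 9 with RGFP966, and it was not called. The summed tags of Nfkbiz were 8.42 ± 0.94, 18.5 ± 4.18 and 13.4 ± 1.47 normalised tags, with the KLA libraries above Veh and an adjusted p of 0.0609.

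Bcl3 encodes a nuclear IkB protein that binds p50 and p52 dimers. Bcl3 -8135 held 20 and 17 tags at Veh, 25 and 15 after KLA, and 31 and 31 with RGFP966, and Bcl3 +6333, in intron 2, held 9 and 11, 18 and 8, and 16 and 9. Summed, the gene had 22.8 ± 0.45 normalised tags at Veh, 21.3 ± 2.33 after KLA and 21.9 ± 1.85 with RGFP966. All 3 conditions overlapped, and the log2 difference of KLA from Veh was -0.07 (SE 0.26, adjusted p = 0.928).

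Tnfaip3 encodes A20, an enzyme that edits ubiquitin chains and restrains the IkB kinase. Over its 3 peaks it had 17.3 ± 3.59 normalised tags at Veh, 25.6 ± 2.32 after KLA and 31.1 ± 6.27 with RGFP966. It passed the test for RGFP966 + KLA against Veh (log2 difference 0.85, SE 0.25, adjusted p = 0.0184) and not for KLA against Veh (0.59, SE 0.27, adjusted p = 0.213) or RGFP966 + KLA against KLA (0.25, SE 0.21, adjusted p = 0.618). All 3 peaks were listed through the RGFP966 + KLA set, +2392 through it alone, and none through the Veh set. The tests of the sum thus use libraries that chose its peaks. The call against Veh did not hold under DESeq2 (adjusted p = 0.477 and 0.489). In edgeR it did not hold when scaled to all tags of a library (0.159) or over peaks within 20 kb (0.285). The call lost significance without the first Veh library (adjusted p = 0.249) and without the second RGFP966 + KLA library (0.231). The intergenic peak Tnfaip3 +46905 held 4 and 7 tags at Veh, 14 and 10 after KLA, and 22 and 24 with RGFP966, and the 3 conditions were apart. It was gained in RGFP966 + KLA against Veh (log2 fold change 1.38, SE 0.43, adjusted p = 0.03), but not without any 1 of the 4 libraries compared (adjusted p from 0.0553 to 0.291). Tnfaip3 +68474 held 7 and 12 tags at Veh, 28 and 13 after KLA, and 19 and 22 with RGFP966. Tnfaip3 +2392, in intron 1, held 8 and 5, 9 and 5, and 13 and 23 tags, and was the member peak outside the KLA set. Its RGFP966 + KLA libraries were above the KLA libraries without passing the test (log2 difference 0.97, SE 0.43, adjusted p = 0.302).

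**Figure D4:**
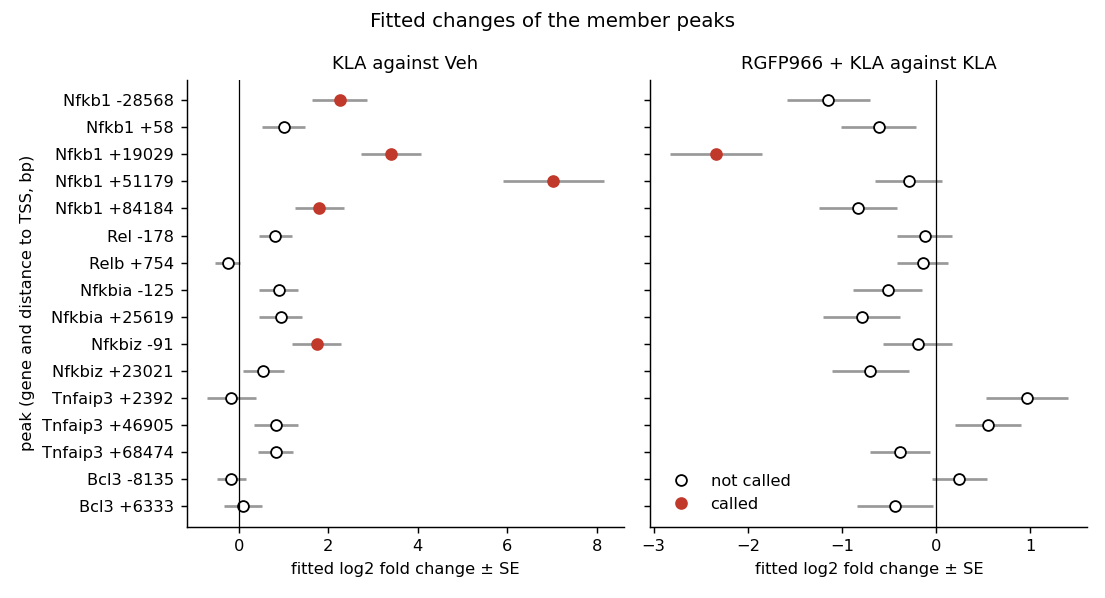
Fitted log2 fold change (x axis) with its standard error for the 16 member peaks (y axis) in KLA against Veh and in RGFP966 + KLA against KLA, from edgeR, with called peaks filled. The 5 filled points of the first comparison are 4 Nfkb1 peaks and Nfkbiz -91, and the filled point of the second is Nfkb1 +19029. The fitted value of Nfkb1 +51179 in the first comparison, which has no tags at Veh, depends on the prior count and is no measure of size.

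Other genes of the pathway were followed in a list of 40, with 20 kinases and adaptors and 20 further inhibitors and ubiquitin enzymes. Of these, 29 had a WT peak within 100 kb and were tested by summed tags. In KLA against Veh 3 were higher and 0 lower, where 2.64% and 1.67% of all genes were. In RGFP966 + KLA against KLA 0 were higher and 0 lower (0.212% and 0.106% of all genes), and in RGFP966 + KLA against Veh 0 were higher and 2 lower (5.85% and 3.44%). The list's median log2 difference was 0.02 in the first of these comparisons, -0.18 in the second and -0.05 in the third, against 0.01, 0.02 and 0.02 over all genes. Bcl10, an adaptor of the receptor-to-kinase route in lymphocytes, had 33 and 24 tags at Veh and 75 and 42 after KLA (log2 difference 0.75, SE 0.24, adjusted p = 0.0434). Tnip1, whose product binds A20, had 14 and 12 tags at Veh and 42 and 31 after KLA (1.20, SE 0.31, adjusted p = 0.0108). Zc3h12a, which encodes the ribonuclease Regnase-1, had 67 and 48 tags at Veh and 135 and 80 after KLA (0.62, SE 0.19, adjusted p = 0.0385). The 2 lower genes were Traf2, an adaptor of TNF receptors, with 23 and 14 tags at Veh and 16 and 8 with RGFP966 + KLA (-1.28, SE 0.38, adjusted p = 0.0176), and Birc2, a ubiquitin ligase, with 19 and 25 tags at Veh and 12 and 21 with RGFP966 + KLA (-1.07, SE 0.34, adjusted p = 0.0264). DESeq2 scaled to total tags in peaks called none of these 5 in those comparisons.

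The genes whose summed tags followed Nfkb1 most closely over the 6 WT libraries were Itga9 (Pearson's r = 0.976), Spryd7 (0.964) and A530046M15Rik (0.958), of 1195 genes with a mean of at least 30 tags. These values describe 6 points that share their libraries and fall into 3 conditions. Itga9 had 14.7 and 19.8 normalised tags at Veh, 38.5 and 41.1 after KLA, and 32.1 and 35.0 with RGFP966.

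In NCoR f/f BMDMs at Veh the 45 member peaks covered all 10 loci, in a table with more tags per library and with peaks merged from 4 conditions. The members took 0.143% and 0.144% of the tags in peaks. All 16 WT member peaks overlapped 1 NCoR f/f peak each, and the remaining 29 NCoR f/f members, 15 of them within 2 kb of a TSS, had no WT counterpart. Per kb of peak, Relb was highest (20.3 ± 0.38 normalised tags per kb, n = 2). Bcl3 (13.7 ± 2.21) and Nfkbia (13.5 ± 0.77) came next and overlapped each other. Bcl3 also overlapped Nfkb2. Nfkb2, which encodes p100, the precursor of p52, had 12.0 ± 0.48. Rela, which encodes p65, had 9.65 ± 0.85 and overlapped Rel (9.57 ± 0.39), which overlapped Nfkbiz (8.68 ± 1.32). Tnfaip3 (6.73 ± 1.25) and Nfkb1 (6.61 ± 0.59) overlapped, and Nfkbie, which encodes the cytoplasmic inhibitor IkBε, was lowest at 3.97 ± 0.61. This order is over merged peaks of which many entered through KLA or knockout libraries, and it was not tested.

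**Figure D5:**
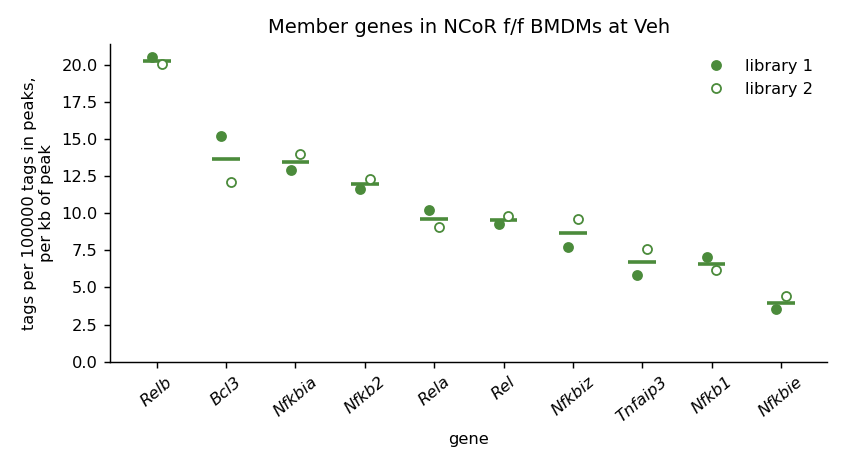
Tags per 100000 tags in peaks per kb of peak (y axis), summed over the member peaks of each of the 10 genes (x axis), in NCoR f/f BMDMs at Veh. Filled and open points are the 2 libraries and horizontal lines their mean. Relb lies at 20.6 and 20.0 and Nfkbie at 3.55 and 4.40.

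The 3 genes without a WT peak could be described here only. Nfkb2 -234 held 22 and 29 tags and Nfkb2 +197 held 7 and 13. Rela -141 held 12 and 15 tags and Rela +11375, at the transcript end, held 12 and 14. The Nfkbie promoter peak at -59 held 11 and 11 tags, while Nfkbie -909 held 2 and 10 and Nfkbie +2068 held 7 and 13. The promoter peaks of Nfkb2 and Rela thus had 12.9 and 12.4 normalised tags per kb, close to Rel -162 with 12.0. Nfkbiz had promoter peaks at 2 annotated start sites, with 5 and 10 tags at -93 of the first and 8 and 24 at -67 of the other.

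The intronic Nfkb1 peaks gained in the WT KLA libraries were also low in the NCoR f/f libraries at Veh. Nfkb1 +51172, which overlaps +51179, held 3 and 3 tags, and Nfkb1 +18948, which overlaps +19029, held 1 and 3. At 1.76 and 1.98 normalised tags per kb these were the lowest 2 of the 45 members, and 0.479% and 0.684% of all 24867 peaks were lower. Nfkb1 +84229 held 4 and 5 tags (3.37 per kb), whereas the peaks at -8197, +185, +83232 and +94366, which were in the NCoR f/f Veh set, held 10 to 21. The counterpart of the gained upstream peak -28568, Nfkb1 -28585, was not among the lowest. It held 9 and 10 tags (9.24 per kb), and 34.9% of all peaks were lower. It was listed through the knockout KLA set alone. None of the 3 low intronic peaks was in a Veh set, so a low Veh level and the way the table was made cannot be told apart there. The highest members were Relb +759 with 45 and 66 tags and Bcl3 -8177 with 44 and 39, which are the counterparts of the 2 WT members of the Veh set. The WT and NCoR f/f tables have different peaks, their labels hold different codes whose meaning is not stated, and no test between them was made.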

How the data were processed

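The deposited peak tables give raw tag counts per peak and library, with HOMER's annotation. Per the paper's methods and the submitters' notes, the authors used Bowtie2 to place single-end ATAC-seq reads on mm10 and HOMER to call peaks, kept those reproducible between 2 libraries of a condition, merged them over conditions and counted tags without adjustment. Versions are not given in the sources used here, and no shift of reads for the transposase is stated. The WT table held 6 libraries (116733 to 202523 tags in peaks) and the NCoR f/f table the other 2.

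Tags per peak, and tags summed per gene over its peaks within 100 kb, were tested with edgeR 4.0.16 (quasi-likelihood test, all 6 WT libraries, library size = total tags in peaks, at least 4 tags in 1 library, which every peak passed), with Benjamini-Hochberg adjustment over 9698 peaks or 6598 genes. A peak was called at adjusted p under 0.05 and a fold over 2, a gene at adjusted p under 0.05. The common dispersion in edgeR, its estimate of spread beyond counting error, was 0.0052 over peaks. SE values are on the log2 scale and were derived, as the size of the fitted log2 fold change divided by the square root of the test's F statistic. The sign ± gives the SD of 2 libraries. Ratios of summed tags carry exact conditional 95% (Clopper-Pearson) intervals, which cover counting error only. DESeq2 1.42.0, other scalings (TMM, all tags, loess), filters, the replicate block and leaving out each library were alternatives. The scripts were tested on simulated data. The members, the lists and the peaks named (nearest the TSS, called in any comparison, smallest adjusted p per gene; the others by their tags) were chosen with earlier results of these data known. Motifs were searched on both strands of the RefSeq GRCm38.p6 sequence, in which no peak passed a chromosome end and 59 of 61 deposited member distances came within 5 bp of the assembly's TSS.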

Additional observations from a re-analysis of the deposited data

How the results depend on the processing

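In KLA against Veh, 5 member peaks were gained; the count was 3 when libraries were scaled to all their tags, 2 with loess offsets, 0 in DESeq2 under either scaling, 2 with a minimum of 16 tags, which removes peaks, 3 with only the 4 libraries compared, 2 among the peaks of the RGFP966 + KLA set, an alternative chosen after seeing the data, and 2 to 4 when 1 library was left out. The 1 member peak lost in RGFP966 + KLA against KLA became 2 with loess offsets, 0 in DESeq2 under either scaling, 0 with a minimum of 16 tags, 0 among the peaks of the Veh set (also chosen after seeing the data) and 0 to 1 when 1 library was left out. The 2 gained in RGFP966 + KLA against Veh became 1 with all tags, 0 in DESeq2 and 1 to 3 when 1 library was left out. By summed tags, the 1 gene lower in RGFP966 + KLA against KLA became 0 with all tags, in DESeq2 and with peaks within 20 kb, and 0 to 1 when 1 library was left out. The 2 genes higher in RGFP966 + KLA against Veh became 1 with all tags, 0 in DESeq2 and with peaks within 20 kb, and 0 to 2 when 1 library was left out. Where no construction is named, the cause was not tested. Leaving a group with 1 library assumes that it varies like the others.

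The correlation of same-numbered libraries' deviations over 7705 peaks was 0.0551, 0.0157 and 0.0144 for the pairs of conditions. At so few tags per peak counting error can hide a pairing, so these values do not settle whether replicate numbers pair the samples. With the replicate block, 2 genes were higher in KLA against Veh instead of 1, with Nfkbiz added (adjusted p = 0.041 in edgeR), 3 member peaks were gained in RGFP966 + KLA against Veh instead of 2, with Nfkbiz -91 added (0.0432), and the other counts of members were as without it.

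None of the sign changes involved a called value. Over peaks within 20 kb the log2 difference of Tnfaip3 in KLA against Veh was -0.17. In RGFP966 + KLA against KLA, scaling to all tags gave 0.057 for Rel (0.058 for Rel -178) and 0.028 for Relb (0.028 for Relb +754), and TMM gave -0.012 for Bcl3. In RGFP966 + KLA against Veh, all tags gave 0.036 for Bcl3, distal peaks alone gave -0.15 for Nfkbiz, and loess offsets gave -0.051 for Nfkb1 +19029 and -0.038 for Nfkbia +25619. When 1 library was left out, Bcl3 ranged from -0.21 to 0.012 in KLA against Veh, from -0.075 to 0.15 in RGFP966 + KLA against KLA and from -0.15 to 0.026 in RGFP966 + KLA against Veh. In KLA against Veh, Tnfaip3 +2392 ranged from -0.42 to 0.16 and Bcl3 +6333 from -0.22 to 0.29. In RGFP966 + KLA against KLA, Rel ranged from -0.26 to 6.3e-05, Rel -178 from -0.26 to 0.0013, Relb from -0.34 to 0.046, Relb +754 from -0.35 to 0.041 and Nfkbiz -91 from -0.62 to 0.15. In RGFP966 + KLA against Veh, Nfkb1 +58 ranged from -0.19 to 1.29, Nfkbia +25619 from -0.62 to 0.62 and Nfkbiz +23021 from -0.30 to 0.025. Of 351 alternative values for genes and 711 for peaks, 319 and 645 kept their direction and their side of the threshold. No filter on tags gave identical values. Most member peaks held under 30 tags per library, which limits what a pair of libraries can show.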
